A study of Mus musculus with 4 samples.

Results

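Cytotoxic T cells, high in the sum of Ccl5 and Nkg7, were selected in blood that the labels name as mouse. The selection used unique molecular identifiers (UMIs, 1 per captured transcript molecule) in each cell. As the limit is on the sum, a member need not be high in both genes. A cell was a member when Cd3e, Cd3d and Cd3g together had at least 2 UMIs and Ccl5 and Nkg7 together at least 4. It also had no UMI of Ncr1, Foxp3 or Csf1r, at most 1 of Cd79b, Lyz2 below 5000 CPM (a gene's UMIs scaled to a common total) and at most 1 UMI of Mki67, Top2a, Birc5 and Cdk1 together. These conditions found 405 of the 48032 cells kept with at most 10% mitochondrial UMIs, out of 53380 in all. The control library held 44 of them, 12 h of pancreatitis 153, 24 h 44 and 96 h 164.

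Cytotoxic T cells kill infected or damaged cells by releasing granules that hold perforin, which opens the target's membrane, and granzymes, proteases that enter through it. Most of them carry the CD8 coreceptor, which binds class I molecules of the major histocompatibility complex, and antigen-experienced ones store message for the chemokine Ccl5 and for Nkg7, a granule membrane protein needed for granule release. In blood they circulate beside natural killer (NK) cells, which use the same granules without a T cell receptor, and some share with NK cells the killer lectin receptors of the Klr and Ly49 families.

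By the submitters' description all libraries came from mononuclear cells of peripheral blood of wild-type C57BL/6J mice aged 6 to 8 weeks. The cells were separated on a Ficoll gradient and read by 5′ droplet sequencing. Controls were taken at 0 h without further treatment named in the labels. The pancreatitis groups had 7 intraperitoneal injections of cerulein, a cholecystokinin analogue that overstimulates the exocrine pancreas, at 60 mg/kg, and were sampled at 12 h and 24 h (initial phase) and 96 h (recovery). The design text gives 168 h in place of 96 h for the last time, and the number of animals behind a library is not given in the sources used here. Each group had 1 library, so no difference between times has a replicate check and none was tested. The 3 comparisons with control share the control library. Every interval printed is a 95% interval for counting error only.

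Libraries held 60515205 to 79516878 UMIs, and the members' summed counts were 284131, 1035537, 416344 and 1305385 UMIs from control to 96 h. The median member had 5671, 6169, 9610 and 7490 UMIs in that order, so members at 24 h were the deepest. No cell's counts recurred in another library (0 pairs), although the barcode lists of 12 h and 24 h were identical (11663 barcodes). The control matrix had 14569 columns for 4340 listed barcodes, and the 24 h matrix 12588 columns for 11663. Cells were therefore taken from the matrix columns. Gene names are printed as the files give them. Of the names 28 begin with RT1- and 0 with H2-, the rat and mouse prefixes of the major histocompatibility complex. Another 1691 begin with AABR07, a form of rat naming. These names are of rat naming, whereas the labels name mouse and mm10. Which species the cells came from was not settled. Mouse is therefore given here by the labels only, and no coordinate or sequence is given.

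The values that chose the members are described here, and nothing is read from how they differ between libraries. Among T cells that met every other condition, those with no Ccl5 or Nkg7 UMI or with 1 were the majority in each library. Cells just outside the limit, with 2 or 3 UMIs, numbered 126, 167, 124 and 329 from control to 96 h. Cells just inside it, with 4 or 5, numbered 1, 24, 9 and 30, and cells with 20 or more numbered 31, 105, 15 and 85. Median Ccl5 UMIs per member were 49.5, 71, 1 and 20 from control to 96 h, and median Nkg7 UMIs 6 to 8.5. Members without any Ccl5 UMI numbered 3, 15, 18 and 39, and those without Nkg7 2, 19, 1 and 11.

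The label was checked on genes that the conditions did not use. Ctsw, which codes for the killer-cell protease cathepsin W, stood at 764, 769.6, 838 and 919 CPM in members, in the order of control and then the times. Its level in T cells with at most 1 UMI of Ccl5 and Nkg7, called T cells low in cytotoxic genes below, was 204, 306, 188 and 224 CPM. Gzmm, which codes for granzyme M, stood at 2172, 1997, 1946 and 2160.3 CPM in members and at 30.7, 61.9, 25.9 and 61.3 CPM in those other T cells. Klra22, a killer lectin receptor of the Ly49 family, was at 49.3, 63.7, 444 and 267 CPM in members, lower in the first 2 libraries than in the others. Ctsw and Gzmm were thus higher in members than in the other T cells of each library. Those T cells were not chosen by coreceptor, so differences between CD4 and CD8 T cells cannot be told apart from this check. Prf1 (perforin) and Gzma (granzyme A) were below their NK cell levels in each library, as given below. Some members with many UMIs of Prf1 and Gzma had no UMI of Ctsw.

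RNA and cells of other types were measured in the same way. The summed level of the 7 neutrophil markers in members was 7.04, 1907, 267 and 32.2 CPM from control to 96 h, and in B cells 17.7, 4061, 1905 and 59.5 CPM. Monocyte markers summed to 241 to 536 CPM in members against 22934 to 39981 CPM in monocytes, with C1qa at 0 in each library (Csf1r is at 0 by the rule). B cell markers summed to 14.4 to 24.6 CPM with Pax5 at 0, and acinar markers were all at 0. B cells that reached 4 UMIs of Ccl5 and Nkg7 were 22 of 1916, 62 of 2530, 18 of 2077 and 28 of 2928, or 0.867% to 2.45%, and monocytes 8 of 3328, 69 of 3078, 35 of 4168 and 15 of 1599, or 0.24% to 2.24%, both with the highest share at 12 h. These shares are of the order of the members' own share of kept cells given below. Such B cells without the NK genes described next were 3, 12, 1 and 3, or 0.157%, 0.474%, 0.0481% and 0.102%, and such monocytes 0 in each library. The median B cell held 2812 to 3329 UMIs. Scrublet, which scores cells against simulated doublets, marked 4 of 44, 3 of 153, 2 of 44 and 6 of 164 members. The part of free RNA and doublets in the results was not tested beyond the alternatives in the closing section.

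Members fell into 3 ranges of expression, cut at limits chosen after the data were seen. The first limit was 10 UMIs of Tyrobp and Fcer1g together, which code for adaptors of NK and myeloid receptors, and members above it are called NK-gene cells. The others were divided at 10 UMIs of Ccl5 into Ccl5-high and Ccl5-low cells. Over the 4 libraries 192 members were Ccl5-high, 159 Ccl5-low and 54 NK-gene. These are ranges and not cell types. Between 5 and 19 UMIs lay 3, 12, 1 and 5 cells around the Ccl5 limit and 6, 7, 6 and 16 around the NK-gene limit.

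**Figure D1:**
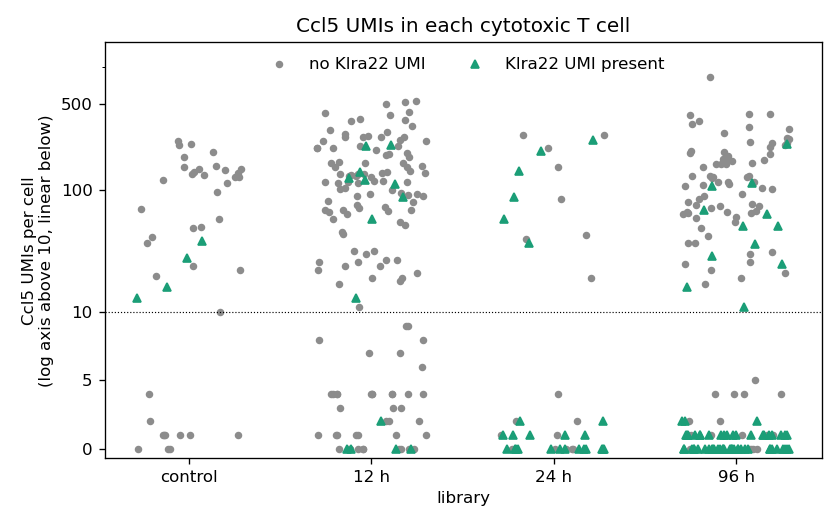
Each point is 1 of the 405 cytotoxic T cells, placed by library on the x axis and by its Ccl5 UMIs on the y axis (log above 10, linear below). Triangles are cells with a Klra22 UMI, the dotted line marks 10 UMIs, and few cells lie near it. At 24 h and 96 h triangles gather near 0 Ccl5 UMIs.

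Cd8b, the second chain of the CD8 coreceptor, was at 139, 136, 112 and 116 CPM in NK-gene cells and at 359, 411, 389.9 and 408 CPM in Ccl5-high cells. Scrublet marked 10 of the 54 NK-gene cells as doublets, 4 of the 192 Ccl5-high and 1 of the 159 Ccl5-low cells. Median UMIs of Cd3e, Cd3d and Cd3g together were 2, 6, 13.5 and 12 in NK-gene cells and 15, 14, 17.5 and 17 in Ccl5-high cells. In the control library the NK-gene median was thus at the limit of the Cd3 condition. NK-gene cells may be T cells with NK genes, NK cells that just met the Cd3 condition, or droplets with a T cell and an NK cell. Which of these holds was not tested.

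The share of cytotoxic T cells among kept cells was highest at 12 h and 96 h. Members were 0.364% (0.265 to 0.489) of control cells. They were 1.39% (1.18 to 1.62) of cells after 12 h, 0.387% (0.281 to 0.519) after 24 h and 1.21% (1.03 to 1.41) after 96 h. Relative to control these shares were 3.81 (2.71 to 5.45), 1.06 (0.683 to 1.65) and 3.32 (2.37 to 4.74) times as large. The intervals of 12 h and 96 h lay above those of control and 24 h. As a share of all T cells that met the Cd3 condition, 3817, 2522, 2724 and 6409 cells, the ratios were 5.26, 1.40 and 2.22, so the 12 h ratio was larger and the 96 h ratio smaller with T cells as the base. When each cell was first thinned to 2000 UMIs the shares were 0.370%, 1.21%, 0.255% and 0.800%. The 24 h ratio was then 0.691 (0.413 to 1.14), on the other side of 1 from the unthinned one. With thinning and T cells as the base the ratios were 4.69, 0.933 and 1.46 (1.01 to 2.13). Unthinned, NK cells (defined below) were 2.66, 1.29 and 1.38 times their control share of kept cells. T cells low in cytotoxic genes were 0.610, 0.802 and 1.64 times theirs. NK cells thus also had their highest share at 12 h, and those T cells at 96 h.

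The 3 ranges are set by a gene of the selection, so their numbers are a description. Ccl5-high cells numbered 27, 90, 6 and 69, which is 0.224% (0.147 to 0.325), 0.816% (0.657 to 1.0), 0.0528% (0.0194 to 0.115) and 0.509% (0.396 to 0.643) of kept cells. Relative to control their share was 3.65 times (2.35 to 5.84), 0.236 times (0.0797 to 0.583) and 2.28 times (1.44 to 3.69) as large. The 24 h ratio rests on 6 cells. As the range is cut on Ccl5, which also chose the members, these ratios describe the selection and nothing further is read from them. Ccl5-low cells numbered 10, 46, 28 and 75, which is 0.0828% (0.0397 to 0.152), 0.417% (0.306 to 0.556), 0.246% (0.164 to 0.356) and 0.553% (0.435 to 0.693). NK-gene cells were 7, 17, 10 and 20. Of the members at 24 h 13.6% were Ccl5-high, against 61.4% in the control library. When cells were thinned to 2000 UMIs before the selection, Ccl5-high cells numbered 30, 104, 8 and 75 and stood at 3.74 times (2.47 to 5.82), 0.283 times (0.112 to 0.632) and 2.18 times (1.41 to 3.44) the control share. Ccl5-low cells then numbered 2, 8, 2 and 6, at 4.32 times (0.861 to 41.7), 1.06 times (0.0769 to 14.6) and 2.61 times (0.467 to 26.4) the control share. Few Ccl5-low cells thus met the condition at equal depth. At full depth 9 of 10, 28 of 46, 26 of 28 and 61 of 75 met it on Nkg7 alone, with median Nkg7 UMIs of 7.5, 4, 7 and 6. A difference in their number from control was not detectable once cells were thinned.

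**Figure D2:**
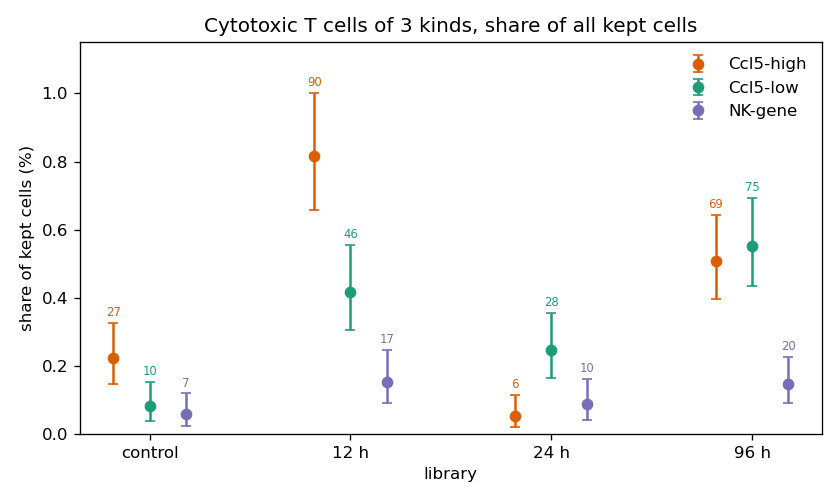
Share of kept cells (y axis, %) that were Ccl5-high, Ccl5-low or NK-gene cytotoxic T cells in each library (x axis), with 95% Clopper-Pearson intervals and the number of cells above each point. Ccl5-high cells number 6 at 24 h, and Ccl5-low cells number 75 at 96 h (6 when cells are first thinned).

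Cells with a UMI of Cd8a or Cd8b and none of Cd4 were 86.4%, 90.2%, 97.7% and 92.1% of members, or 70.5%, 80.3%, 79.5% and 79.3% after thinning to 2000 UMIs. Cells with Cd4 alone numbered 2, 4, 0 and 1, where 0 of 44 cells allows a share of up to 8.04% of cells with a UMI (Clopper-Pearson). Cd8a does not separate members from NK cells, since after thinning a UMI of it was found in 70.5 to 78% of members, 67 to 76% of NK cells and 4.27 to 5.58% of B cells. Cd8b does, with 34.8 to 47.7% of members, 0 to 0.862% of NK cells and 0.564 to 0.928% of B cells. Cells with neither coreceptor numbered 4, 11, 1 and 11. Cd8a was at 964, 1133, 934 and 1039.5 CPM in members, 589, 638, 449 and 531 CPM in T cells low in cytotoxic genes and 967, 710.1, 809.7 and 811 CPM in NK cells (Ncr1 present, no Cd3 UMI, at least 4 UMIs of Ccl5 and Nkg7). Cd8b was at 348, 368, 221 and 247 CPM in members and 2.13, 2.45, 1.44 and 0.598 CPM in NK cells. Both chains were found in 25 of 44, 90 of 153, 26 of 44 and 105 of 164 members, and Cd8a alone in 13, 45, 17 and 46. Within Ccl5-low cells Cd8b was at 438, 382, 231 and 157 CPM, 0.358 times (0.242 to 0.54) the control level at 96 h, whereas in Ccl5-high cells it was 1.14 times (0.844 to 1.55) the control level.

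Set beside T cells low in cytotoxic genes of their own library, members were at least 2-fold higher in all 4 libraries for 61 of 1854 genes (3.29%) and 2-fold lower for 8 (0.431%). Part of that contrast is set by the conditions on Ccl5 and Nkg7. The other T cells were not chosen by coreceptor and held less Cd8a than members in each library. Differences between CD4 and CD8 T cells therefore cannot be told apart from this contrast. Beside Gzmm (32.3 to 75-fold over the libraries), the higher genes included Ly49i4 (21.9 to 403-fold) and Ly49s6 (32.9 to 233-fold), killer lectin receptors, and Ccl4 (16.1 to 66.9-fold) and Ccl3 (6.43 to 11-fold), inflammatory chemokines. The highest Ly49i4 value, of the control library, rests on few UMIs in the other T cells and was 403-fold (96.5 to 3580.5). Il18rap, a subunit of the interleukin-18 receptor, was 6.2 to 37-fold higher and Cxcr3, a receptor for interferon-induced chemokines, 4.3 to 10.6-fold. Cst7, which codes for the cathepsin inhibitor cystatin F, was 6.73 to 19-fold higher, and Magohb, Ybx3, Dapk2 and Klrb1c were also among the 12 named. The 8 lower genes were Cd40lg, the helper T cell ligand that activates B cells (0.0853 to 0.177 times), Btg2, an antiproliferative factor of resting cells (0.258 to 0.389 times), and Trib2, Rab3ip, Ly6e, Pde4d, Rgcc and Gimap9. Cd40lg stood at 24.6, 30.9, 16.8 and 39.8 CPM in members and 253, 174, 197 and 279.7 CPM in the other T cells.

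Compared with NK cells, 34 of 2160 genes (1.57%) were at least 2-fold higher in members in all 4 libraries and 97 (4.49%) at least 2-fold lower. The condition on Cd3 sets part of that contrast. Trat1 and Sit1, adaptors of the receptor, were 19.8 to 107-fold and 22.1 to 83.7-fold higher, and Bcl11b, a transcription factor of T cell commitment, 4.25 to 7.33-fold. The highest values, of 24 h, rest on few UMIs in NK cells and were 107-fold (17.9 to 4359.8) for Trat1 and 83.7-fold (22 to 709.8) for Sit1. Camk4, a calcium-dependent kinase, and Kcnn4, a calcium-activated potassium channel, were 7.21 to 15.3-fold and 6.34 to 20.2-fold higher. S1pr1, the receptor by which lymphocytes leave lymphoid tissue, was 5.73 to 12.3-fold higher, and Cd8b, Ms4a4c, Adam19, Art2b, Gimap4 and Gimap9 completed the 12 named. Lower genes were Prf1 (perforin, 0.0847 to 0.143 times), Gzma (granzyme A, 0.0639 to 0.115 times), Tyrobp (0.076 to 0.097 times), the lectin receptors Klri1 and Klri2, Itgad, Cd24, Fam213b, Adamts14, Nrgn, Tcte1 and Spint1.

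**Figure D3:**
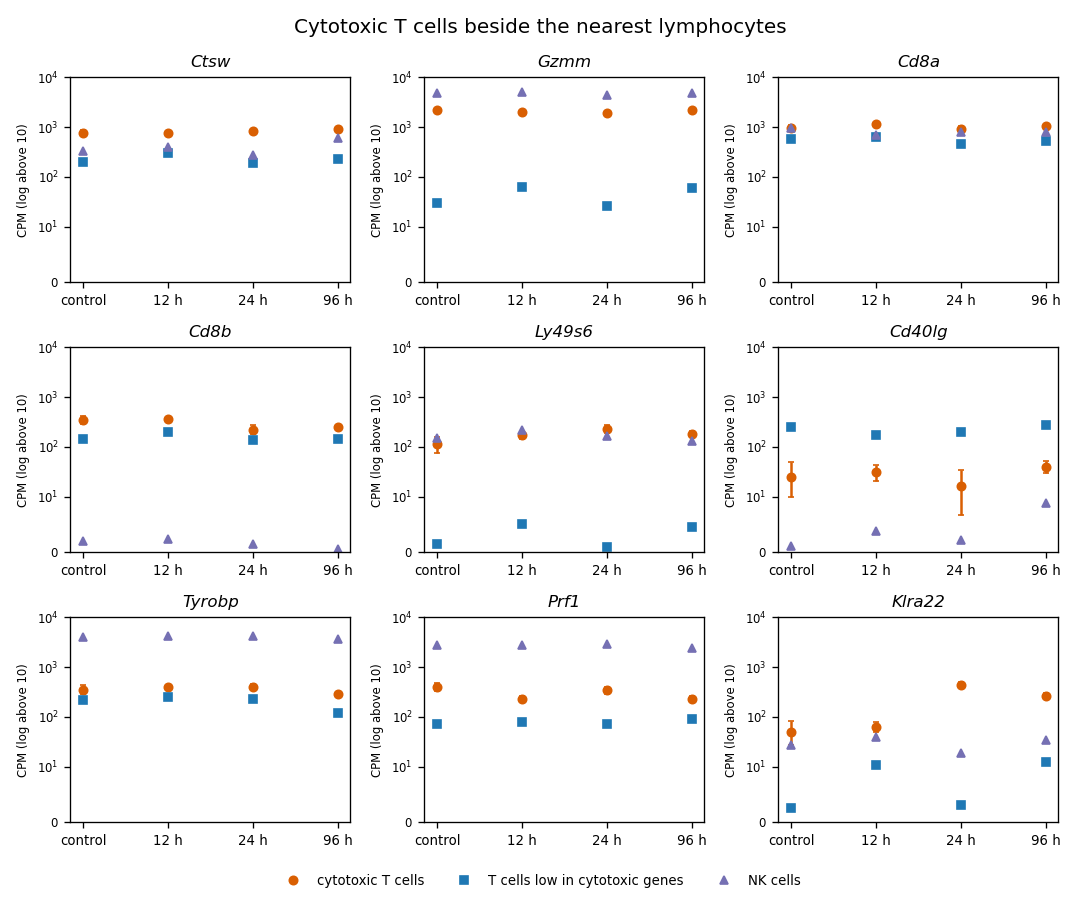
Level in CPM (y axis, log above 10) of 9 genes in cytotoxic T cells (circles, with Poisson 95% intervals), T cells low in cytotoxic genes (squares) and NK cells (triangles) of each library (x axis). Gzmm lies between the other 2 populations in every library, Cd40lg below the other T cells and Prf1 below NK cells.

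Gzmk (granzyme K) stood at 1165, 1320.1, 495 and 666 CPM in all members, and was 0.425 times (0.355 to 0.507) the control level at 24 h and 0.572 times (0.504 to 0.651) at 96 h. In Ccl5-high cells it was 1039, 1540.1, 672 and 949.6 CPM, in Ccl5-low cells 645, 570.0, 80.8 and 75.2 CPM and in NK-gene cells 2620.1, 2399, 1563 and 1929 CPM. Ccl5-low cells of 24 h and 96 h thus held less Gzmk than those of control and 12 h. Gzmm went the other way in Ccl5-low cells, 389.6, 903, 1704 and 2079 CPM, and was 2575, 2565, 1646 and 2043 CPM in Ccl5-high cells. Gzma and Prf1 were higher in NK-gene cells than in the other ranges. Gzma was 1414, 1359.6, 1909.8 and 1175 CPM in NK-gene cells and 119.6, 21.2, 43.3 and 112 CPM in Ccl5-high cells, and Prf1 2087, 1296, 1174 and 998 CPM and 94.4, 95.6, 152 and 134 CPM. Gzmb (granzyme B) was 696, 592, 459.6 and 477 CPM in NK-gene cells and 69.2, 77.9, 108 and 34 CPM in Ccl5-high cells. Granzymes are near-identical in part, and how reads that fit more than 1 were counted is not given in the sources used here.

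Killer lectin receptors bind class I molecules and adjust the threshold of killing. Klra22 in all members was 1.29 times (0.719 to 2.49) the control level at 12 h, 9.02 times (5.24 to 16.8) at 24 h and 5.41 times (3.18 to 10.0) at 96 h. A Klra22 UMI was found in 4 of 44, 14 of 153, 26 of 44 and 69 of 164 members, or 9.09, 9.15, 59.1 and 42.1%, and in 0.261, 0.553, 0.722 and 0.649% of B cells. In Ccl5-low cells it was found in 0 of 10, 5 of 46, 18 of 28 and 54 of 75, in Ccl5-high cells in 4 of 27, 3 of 90, 2 of 6 and 9 of 69, and in NK-gene cells in 0 of 7, 6 of 17, 6 of 10 and 6 of 20. After thinning to 2000 UMIs the Ccl5-low counts were 0 of 10, 5 of 46, 11 of 28 and 37 of 75. That thinning kept the members and ranges chosen at full depth. With thinning before the selection only 2, 8, 2 and 6 Ccl5-low cells remained. How far the Klra22 shares of all members depend on the depth at selection was not tested. In Ccl5-low cells the level was 0, 104, 441 and 448 CPM, which against the control library's 0 UMIs gave a lower counting bound of 9.66-fold at 24 h and 9.91-fold at 96 h. That bound treats UMIs as independent, while 0 of 10 control cells allows a share of up to 30.8% of cells with a UMI, against 39.3% (21.5 to 59.4) at 24 h after thinning. In Ccl5-high cells it was 0.862 times (0.457 to 1.72) the control level at 96 h. NK cells held 27.7, 39.1, 18.7 and 34.7 CPM and T cells low in cytotoxic genes 2.52, 10.8, 3.14 and 12.8 CPM.

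Ly49i4 stood at 63.4, 69.5, 228 and 129 CPM in members, 3.6 times (2.16 to 6.34) the control level at 24 h but 0.86 times (0.209 to 2.67) in Ccl5-high cells alone, and in Ccl5-low cells at 0, 72.3, 239 and 190.5 CPM. In NK cells it went from 125 to 70.3 and 66.4 CPM between control, 24 h and 96 h, 0.564 times (0.426 to 0.743) and 0.532 times (0.407 to 0.696) the control level. Ly49s6 was 113, 171, 231 and 185 CPM in members. Klra5 had 0 UMIs in the control library and 33 at 24 h, at least 5.77-fold higher by its counting interval. Klrd1, which codes for CD94, the partner chain of the NKG2 receptors, was 0.606 times (0.505 to 0.729) the control level at 12 h, and Klre1 0.52 times (0.361 to 0.756). Of the 13 measured members of the killer lectin and NK receptor list at 12 h, 0 were at least 1.5-fold higher and 3 lower (5.97% and 10.6% of all genes tested). Of 14 at 24 h, 4 were higher and 0 lower (9.28% and 23.3% of all genes). Of 13 at 96 h, 1 was higher and 1 lower, near the 5.61% and 12.9% of all genes. Ly49 genes are close copies of each other, so reads of one may have been counted for another.

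**Figure D4:**
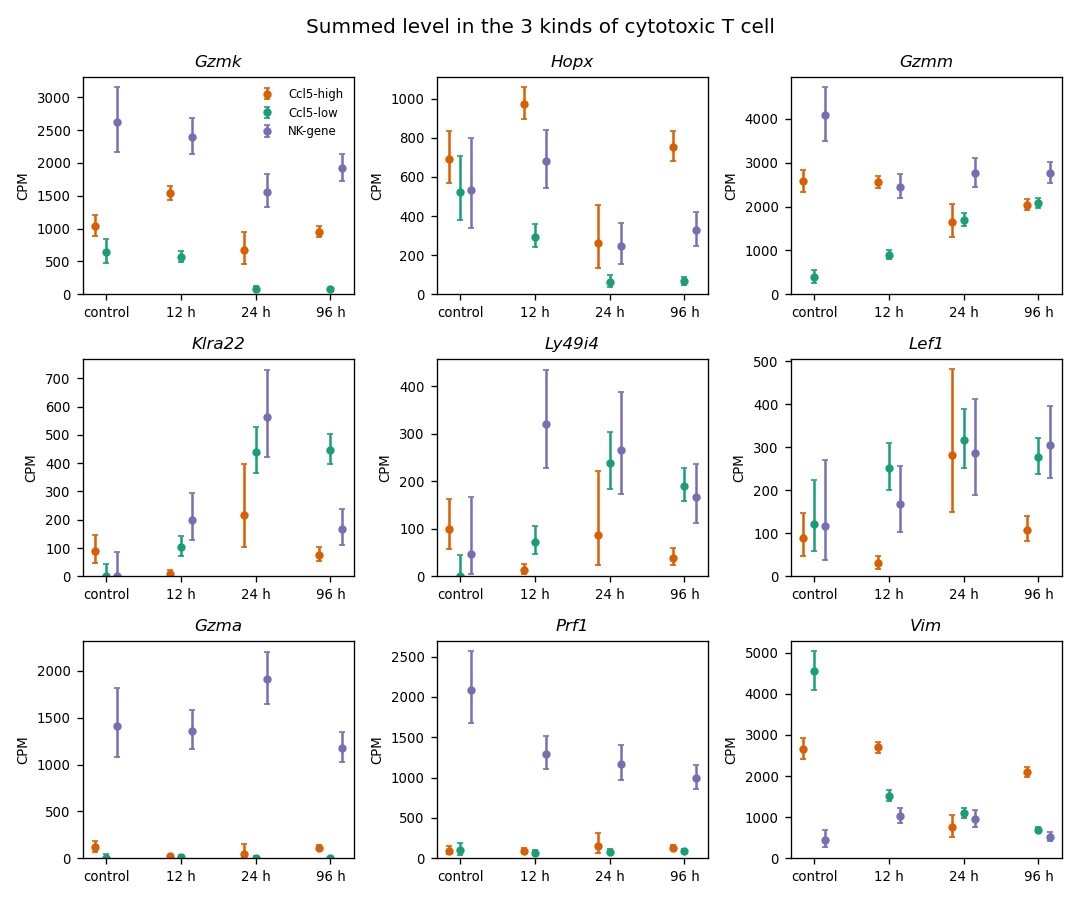
Summed level in CPM (y axis, linear from 0) of 9 genes in Ccl5-high, Ccl5-low and NK-gene cytotoxic T cells of each library (x axis), with 95% Poisson intervals. Gzmk and Hopx are low in Ccl5-low cells at 24 h and 96 h, where Klra22 is above 400 CPM, and Gzma and Prf1 are higher in NK-gene cells than in the other ranges.

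At 12 h, 140 of 2347 genes (5.97%) were at least 1.5-fold higher in members than in the control library and 249 (10.6%) lower, each with at least 50 CPM in either library and 20 UMIs over both. Among Ccl5-high cells alone 259 of 2488 genes (10.4%) were higher and 406 (16.3%) lower, and without NK-gene cells 156 of 2327 (6.7%) and 286 (12.3%). With cells thinned to 2000 UMIs 305 were higher and 283 lower, and with members taken from 2 UMIs of Ccl5 and Nkg7 upward 114 and 54. Junb, a subunit of the AP-1 transcription factor, went from 514 to 211 CPM, 0.41 times (0.331 to 0.509) the control level. S1pr1 went from 341 to 140 CPM, 0.41 times (0.315 to 0.536), and Cxcr4, the receptor for the bone marrow chemokine CXCL12, from 426 to 225 CPM, 0.528 times (0.422 to 0.664). Malt1, a signalling protease downstream of antigen receptors, was 0.385 times (0.271 to 0.551) and Map3k8, a kinase of inflammatory signalling, 0.22 times (0.133 to 0.358). Within Ccl5-high cells alone Junb was 0.361 times (0.272 to 0.479) the control level, S1pr1 0.358 times (0.245 to 0.528) and Cxcr4 0.506 times (0.375 to 0.688), so the ratios were at least as far from 1 within that range. T cells low in cytotoxic genes also held less at 12 h, with Junb at 0.652 times (0.619 to 0.687), S1pr1 at 0.519 times (0.492 to 0.547) and Cxcr4 at 0.474 times (0.449 to 0.499) the control level. Ccr10, a chemokine receptor, was 0.131 times (0.0578 to 0.28), but 1.69 times in Ccl5-high cells alone, and Chrne, Clec2d2, Dusp5, Coq10b, Dnajb9, Rpap3 and Gpr132 completed the 12 lower genes named.

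Among higher genes at 12 h, Lcn2, made by neutrophils, had no UMI in control members and 114 after 12 h, or 110.1 CPM. B cells of the 12 h library held 52.9 CPM of Lcn2, and the part of neutrophil RNA in this value was not tested. Prmt2, an arginine methyltransferase, was 4.66 times (1.74 to 17.6) the control level on 4 and 68 UMIs. Eef1b2 and Npm1, genes of protein synthesis and ribosome assembly, were 1.43 times (1.25 to 1.64) and 1.3 times (1.16 to 1.45). The others named were Ppil1, Exosc5, Tbc1d10c, Eif3m, Tmem165, Bola1, Cklf and Ddx41, between 1.47 and 2.91 times. Tmem165 was 0.410 times after thinning, and Bola1 0.772 times in cells with at most 5% mitochondrial UMIs. The immediate early list, genes switched on soon after a stimulus, had 1 of 8 measured members at least 1.5-fold higher and 5 lower (median log2 ratio -0.65, against -0.06 over all genes tested). The lower ones were Junb, Jund, Ier2, Dusp1 and Dusp2, and the higher one Myc. The granule list had 1 of 13 measured members at least 1.5-fold higher and 2 lower, near the shares of all genes (5.97% and 10.6%). Serpinb9, which inhibits granzyme B, was the higher one, and Gzma and Prf1 the lower ones. Prf1 was 0.583 times (0.464 to 0.735) in all members and 1.01 times (0.563 to 1.93) in Ccl5-high cells.

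After 24 h, 220 of 2371 genes (9.28%) passed 1.5-fold upward and 553 (23.3%) downward. The split depends on scaling, since median-of-ratios scaling shifted each log2 ratio by 0.16 and gave 367 higher and 327 lower. Thinning gave 107 and 150, and members from 2 UMIs upward 70 and 121. Without NK-gene cells 246 of 2329 genes (10.6%) were higher and 622 (26.7%) lower. Beside Klra22, Klra5 and Ly49i4, higher genes included Lef1, a transcription factor of naive and memory-precursor T cells, which went from 102 to 305 CPM, 2.99 times (1.98 to 4.64) the control level. Magohb, a subunit of the exon junction complex, was 2.56 times (1.8 to 3.72). Spry2, Il7r, Chchd5, Cks2, Ccar1 and Pdcd1lg2 were also named, the first 3 with 1 UMI in the control library, and Ccar1 was 0.874 times in cells with at most 5% mitochondrial UMIs. Cd27, a costimulatory receptor, was 1.71 times (1.31 to 2.26) and Il2rb, the interleukin-2 and interleukin-15 receptor chain, 1.85 times (1.4 to 2.46). With members taken from 2 UMIs of Ccl5 and Nkg7 upward, Lef1 was 0.912 times the control level at 24 h. In T cells low in cytotoxic genes Lef1 was 0.878 times (0.849 to 0.908) the control level.

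Hopx, a cofactor of effector lymphocytes, went from 619 to 127 CPM, 0.206 times (0.148 to 0.281) the control level, and NK cells held 1.0 times (0.927 to 1.08) their control level. Vim, the intermediate filament vimentin, went from 2865 to 1028 CPM, 0.359 times (0.318 to 0.404). Itgb7 and Itgb1, integrin chains of homing, were 0.0635 times (0.0166 to 0.175) and 0.302 times (0.209 to 0.431), although Itgb1 was 1.38 times (0.642 to 2.77) in Ccl5-high cells alone, and S1pr4 0.345 times (0.239 to 0.491). Pycard, the inflammasome adaptor, was 0.381 times (0.305 to 0.474). Capg, Fam46a, Pdlim1, Slfn4, Zbtb32 and Birc2 completed the 12 named. The cytoskeleton list had 0 of 21 measured members at least 1.5-fold higher and 11 lower (median log2 ratio -0.64, against -0.20 over all genes). The lower ones included S100a4 at 0.221 times (0.17 to 0.285), Crip1 at 0.51 times (0.464 to 0.56) and Lgals1 at 0.463 times (0.405 to 0.529) the control level. In Ccl5-high cells alone, 6 cells at 24 h, S100a4 was above its control level. The transcription factor list had 2 of 16 measured members at least 1.5-fold higher and 7 lower, with Lef1 and Satb1 higher and Hopx, Id2, Runx3, Ikzf3, Foxp1, Bcl11b and Gata3 lower (9.28% and 23.3% of all genes).

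After 96 h, 130 of 2318 genes (5.61%) passed 1.5-fold upward and 298 (12.9%) downward, or 199 and 179 under median-of-ratios scaling, a shift of 0.12 on the log2 scale. Thinning gave 232 and 237, and members from 2 UMIs upward 55 and 43. Among Ccl5-high cells alone 234 of 2456 genes (9.53%) were higher and 402 (16.4%) lower, and without NK-gene cells 143 of 2305 (6.2%) and 348 (15.1%). Klra22 led the higher genes. Cd7, a receptor of early T and NK cells, went from 56.3 to 187 CPM, 3.32 times (2.0 to 5.9) the control level, Lef1 was 2.12 times (1.44 to 3.22) and Magohb 1.98 times (1.42 to 2.81). With members taken from 2 UMIs upward Lef1 was 0.787 times, after thinning Lef1 was 0.913 and Magohb 0.884 times, and in Ccl5-high cells alone Klra22 was 0.862 times and Magohb 0.624 times. RT1-T24-4, named as a class I gene, was 2.2 times (1.55 to 3.21). Spry2, Ccar1, Srpk1, Ube2d1, Rflnb and Eef1b2 were also named, of which Srpk1 was 0.804 times after thinning, Rflnb 0.994 times from 2 UMIs upward and Ccar1 0.356 times with at most 5% mitochondrial UMIs. Cd7 was 36.5, 81, 73.5 and 256 CPM in Ccl5-low cells and 69.2, 40.7, 86.7 and 84 CPM in Ccl5-high cells, so the 96 h value was high in the former. NK cells went from 62.9 to 137 CPM of Cd7, 2.18 times (1.63 to 2.95) their control level.

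Lower at 96 h were Vim at 0.422 times (0.387 to 0.459), Lgals1 at 0.451 times (0.407 to 0.50) and Crip1 at 0.547 times (0.509 to 0.589) the control level, and Ccl4, which went from 651 to 248 CPM, 0.381 times (0.317 to 0.459). In NK cells Ccl4 was 1.18 times (1.07 to 1.3) the control level and Lgals1 0.478 times (0.433 to 0.528). Within Ccl5-high cells Ccl4 was 0.436 times (0.351 to 0.542) the control level, Vim 0.789 times (0.704 to 0.886) and Hopx 1.09 times (0.878 to 1.36). Within that range Vim and Hopx were thus nearer to control than over all members. Runx3, a transcription factor of the CD8 lineage, was 0.361 times (0.233 to 0.565), Hif1a 0.393 times (0.258 to 0.608) and Itgb7 0.344 times (0.232 to 0.517), and Capg, Anxa1, Pdlim1, Ccr10 and Prdx4 completed the 12. In Ccl5-high cells alone Capg was 3.02 times and Anxa1 2.01 times the control level. With Cd79b at 0 and Lyz2 under 1000 CPM, Capg was 2.45, Anxa1 1.74 and Ccr10 2.18 times, and with at most 5% mitochondrial UMIs Crip1 was 1.16 times. The cytoskeleton list had 0 of 21 measured members at least 1.5-fold higher and 8 lower, and the granule list 0 of 13 measured members at least 1.5-fold higher and 3 lower, namely Gzmk, Gzmb and Prf1, where 5.61% and 12.9% of all genes were higher and lower.

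**Figure D5:**
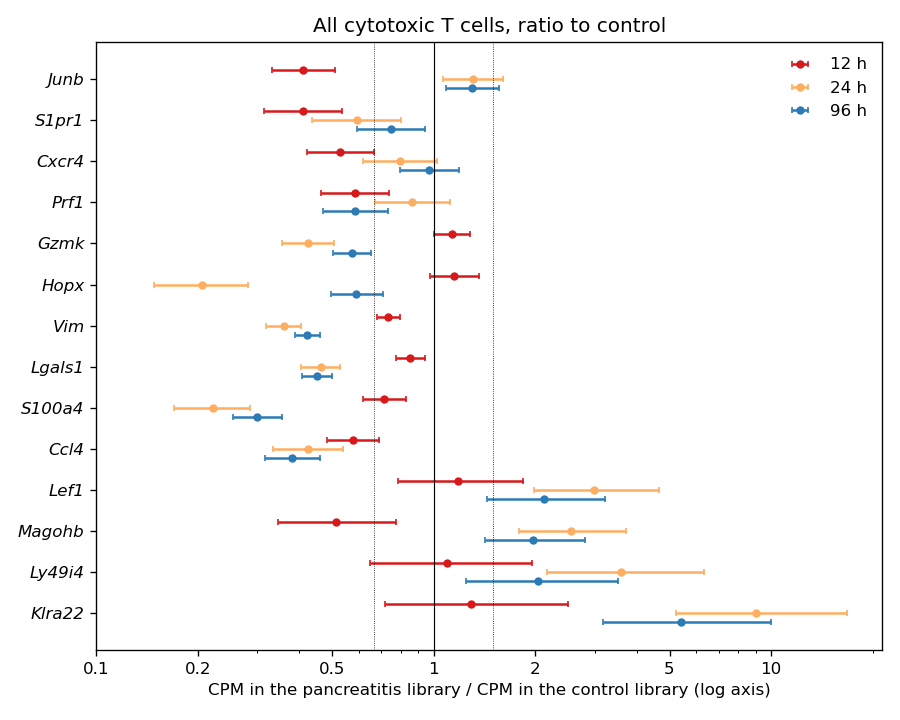
Ratio of the summed level in all cytotoxic T cells to control (x axis, log scale) for 14 genes at 12 h, 24 h and 96 h, with 95% counting intervals. Dotted lines mark 1.5-fold either way. Junb and Magohb lie on different sides of 1 at 12 h and 24 h, and Klra22 is above 5-fold at 24 h and 96 h.

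Ccl5-low cells of the control library were 10 cells (82143 UMIs), so their levels rest on few cells. Vim was 4553, 1519, 1102 and 699 CPM in them from control to 96 h, S100a4 2605, 567, 103 and 166 CPM and Itgb1 877, 315, 84.5 and 178 CPM. In Ccl5-high cells S100a4 was 227, 795, 953 and 452 CPM and Itgb1 189, 342, 260.0 and 444 CPM, higher than control in each pancreatitis library. The 24 h values rest on 6 cells, and the interval of the Itgb1 ratio there held 1 (0.642 to 2.77). S100a4 and Itgb1 were therefore below control in Ccl5-low cells and above it in Ccl5-high cells. Lef1 was 122, 252, 316 and 277 CPM in Ccl5-low cells and 88.1, 30.1, 282 and 108 CPM in Ccl5-high cells. Hopx was 523, 295, 62.4 and 65.6 CPM in Ccl5-low and 692, 974, 260.0 and 754 CPM in Ccl5-high cells. Klrb1a, a lectin receptor of NK cells, was 36.5, 127, 312 and 409.7 CPM in Ccl5-low cells. Of the Ccl5-low cells 1 of 10, 12 of 46, 1 of 28 and 5 of 75 had no Nkg7 UMI and met the condition through Ccl5 alone. Those 12 cells at 12 h lie in the library where B cells without NK genes reached 4 UMIs most often (0.474%). Whether free RNA or doublets brought these cells past the limit was not tested.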

How the data were processed

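Transcripts of single blood cells were counted in 1 library for each of the 4 groups. The authors deposited raw UMI counts per gene and cell. Cell Ranger, Seurat and mm10 are named in the submitters' processing notes, where the sources used here give neither version nor role. The lowest number of detected genes in a deposited cell was 301. Cells with at most 10% mitochondrial UMIs were kept, and doublets were scored with Scrublet in scanpy 1.11.5 but not removed in the main values. The members, comparison gates and gene lists were chosen with earlier results of these data known, and the 10 UMI limits of the 3 ranges after the data were seen.

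UMIs were summed per library and scaled to CPM, which fixes each sum to the same total. Levels carry exact Poisson intervals, shares Clopper-Pearson intervals and ratios exact conditional binomial intervals. Genes with at least 50 CPM in either library and 20 UMIs over both counted as measured, and as higher or lower past 1.5-fold, with no test. A gene at 0 UMIs was set to 3 counts. The functions were tested on simulated data. NK cells had an Ncr1 UMI, no Cd3 UMI and at least 4 UMIs of Ccl5 and Nkg7.

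Named genes were, for each time, the 12 highest and 12 lowest by the interval bound nearest 1, with at least 25% of the highest level in other gates where the gene was higher. Mitochondrial, ribosomal, haemoglobin, immunoglobulin and receptor segment genes and unnamed models were excepted. Within libraries they were the 12 largest and smallest median ratios past 2-fold in all 4. Members of the gene lists were also named, and the genes given within the 3 ranges were chosen after their values were seen. Some genes that these rules name are not reported here and were left out of the lists. Precision follows depth, from 284131 to 1305385 summed UMIs.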

Additional observations from a re-analysis of the deposited data

Results flagged for a closer look

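In cytotoxic T cells 3 genes lay at least 1.5-fold above control at one time and below it at another, each with a counting interval that left out 1. With 1 library per time the difference between times was not tested. Dusp1, a phosphatase of the immediate early response, was 2.01 times the control level at 24 h and 0.484 times at 12 h, and in Ccl5-low cells 2.87 times (1.03 to 11.1) at 24 h. Gzma was 1.62 times at 24 h and 0.641 times at 12 h, and NK-gene cells, which held most of it, made up 22.7% of members at 24 h (interval 11.5 to 37.8), 15.9% in the control library (6.64 to 30.1) and 11.1% at 12 h (6.61 to 17.2). Those intervals overlapped. Magohb was 2.56 times at 24 h and 1.98 times at 96 h against 0.514 times at 12 h. In Ccl5-high cells Magohb was 0.271 times (0.154 to 0.477) at 12 h and 0.624 times (0.389 to 1.02) at 96 h, and in Ccl5-low cells 5.78 times (2.62 to 15.9) at 96 h.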

How the results depend on the processing

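No paired analysis was possible because each group has 1 library. Of 30 share ratios under alternatives, 25 stayed within the counting interval of the value reported. The ratio at 12 h was 2.06 with at least 2 UMIs of Ccl5 and Nkg7. That at 96 h was 2.17 in cells thinned to 2000 UMIs, 2.22 with T cells as the base and 2.28 in Ccl5-high members only, and that at 24 h 0.236 in Ccl5-high members only. The 24 h ratio passed to the other side of 1 with at least 8 UMIs (0.796), with thinning (0.691) and without NK-gene members (0.976). Of 9 share ratios of the 3 ranges, thinning before the selection, added after the data were seen, moved 2 outside their interval, those of Ccl5-low cells at 24 h (1.06) and 96 h (2.61).

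Of 78 counts of genes past 1.5-fold, 43 stayed within 1.5 times of the count reported. With at least 2 UMIs of Ccl5 and Nkg7, 54 genes were lower at 12 h, 70 higher and 121 lower at 24 h, and 55 higher and 43 lower at 96 h. Thinning gave 305 higher at 12 h, 107 higher and 150 lower at 24 h and 232 higher at 96 h. At most 5% mitochondrial UMIs, which left 3 control members, gave 240 and 654 at 12 h, 113 and 117 at 24 h and 239 and 517 at 96 h (higher and lower). Median-of-ratios scaling gave 367 and 327 at 24 h and 199 and 179 at 96 h. Without the CPM filter there were 685 and 626 at 12 h, 344 higher at 24 h and 686 and 770 at 96 h. With at least 100 UMIs over both libraries, which tests fewer genes, there were 57 and 62, 40 and 108, and 72 and 114. Ccl5-high members alone, which at 24 h are 6 cells, gave 259 and 406 at 12 h, 146 and 326 at 24 h and 234 higher at 96 h. That last alternative and the one without NK-gene members were chosen after the data were seen. The cause of these moves was not tested beyond the settings' own construction.

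Of 722 ratios of named genes under alternatives, 22 passed to the other side of 1. In Ccl5-high members these were Anxa1 (2.01), Capg (3.02), Klra22 (0.862) and Magohb (0.624) at 96 h, Ccr10 (1.69) at 12 h, and Itgb1 (1.38) and Ly49i4 (0.860) at 24 h. With Cd79b at 0 and Lyz2 under 1000 CPM they were Anxa1 (1.74), Capg (2.45) and Ccr10 (2.18) at 96 h. With thinning they were Anxa1 (1.21), Lef1 (0.913), Magohb (0.884) and Srpk1 (0.804) at 96 h and Tmem165 (0.410) at 12 h. With at least 2 UMIs they were Lef1 (0.912) at 24 h and Lef1 (0.787) and Rflnb (0.994) at 96 h. With at most 5% mitochondrial UMIs they were Bola1 (0.772) at 12 h, Ccar1 (0.874 at 24 h, 0.356 at 96 h) and Crip1 (1.16) at 96 h. A further 19 ratios had a library at 0 UMIs and gave no usable bound. No median of a gene list past 1.5-fold changed sign, with 395 of 473 list medians within 0.25 (log2) of the value reported.

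The number of cells limits most statements at 24 h and in the control library, which hold 44 members each.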

Other observations

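In cytotoxic T cells at 24 h the class I presentation list had 1 of 12 measured members at least 1.5-fold higher and 5 lower (median log2 ratio -0.56, against -0.20 over all genes). RT1-A1 and RT1-A2, named as classical class I genes, were 0.48 times (0.396 to 0.581) and 0.531 times (0.451 to 0.624) the control level, and Tap1, a subunit of the peptide transporter, 0.591 times (0.40 to 0.872). RT1-A1 was 0.576 times (0.554 to 0.599) in T cells low in cytotoxic genes and 0.612 times (0.556 to 0.674) in NK cells, so all 3 populations held less, and reads of these close copies may have been shared. The type I interferon list had 0 of 7 measured members at least 1.5-fold higher and 5 lower at 24 h, with Gbp2 and Ifi44 at 0.394 times (0.194 to 0.772) and 0.315 times (0.145 to 0.647). Of all genes 9.28% were higher and 23.3% lower at that time, a split that turns to 367 higher and 327 lower genes under median-of-ratios scaling. At 96 h Mx1 was 1.58 times (1.06 to 2.43) and Gbp2 0.368 times (0.222 to 0.623).

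Of the oxidative phosphorylation list 0 of 20 measured members passed 1.5-fold at 12 h, and 0 were higher and 3 lower at both 24 h and 96 h, no larger a share than over all genes at 24 h (23.3% lower) and near it at 96 h (12.9%). Ndufa4, a respiratory chain subunit, was 0.583 times (0.442 to 0.768) at 24 h and 0.536 times (0.431 to 0.67) at 96 h. Of the glycolysis list Hif1a, the hypoxia-inducible factor, was 0.594 times (0.396 to 0.909) at 12 h and Pgam1 1.59 times (1.07 to 2.4) at 24 h. Of the heat shock list Hspd1 was 1.59 times (1.07 to 2.4) and Hsp90b1 0.492 times (0.30 to 0.799) at 24 h. Fos, an AP-1 subunit, had 2 UMIs in the control library and was 9.9 times (2.5 to 85.6) at 24 h and 9.03 times (2.42 to 75.8) at 96 h, while in T cells low in cytotoxic genes it was 3.17 times (2.62 to 3.84) and 1.67 times (1.39 to 2.02).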
